A study of Mus musculus with 9 samples.

Results

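The genes described here are the collagen genes of mouse skin other than those of cartilage fibrils and the anchoring structures of the epidermis. They were taken by name, as every gene of the count table with a mouse symbol made of Col, a number, the letter a and a digit. This gave 44 genes, and 8 were set aside: *Col2a1*, *Col9a1*, *Col9a2*, *Col9a3*, *Col11a1* and *Col11a2*, which build the collagen fibrils of cartilage, and *Col7a1* and *Col17a1*, which anchor the epidermis. The other 36 genes, of 17943 in the table, are the subject. The naming rule uses no measured value, although it was set with earlier results of these data known. The libraries are bulk RNA-Seq of skin from 9 mice, 5 controls and 4 *Supt6*-KO mice, taken on day 10 after the final injection. The *Supt6*-KO mice are K14-CreERT; *Supt6* fl/fl animals that were given tamoxifen by daily intraperitoneal injection from the first telogen. The study describes the controls as *Supt6* fl/fl mice given corn oil and the tissue as dorsal skin, whereas the sample labels name WT mice and ear. By the study's description both groups carry the floxed allele and differ in the Cre transgene and in tamoxifen, and these cannot be told apart from the loss of *Supt6*. The promoter of keratin 14 drives the Cre in keratinocytes of the basal epidermis and hair follicle, so the recombined cells are not those that make most dermal collagen.

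Collagens are secreted proteins of 3 chains wound into a helix, and in skin most are made by dermal fibroblasts. Fibrillar collagens of types I, III and V assemble into the tensile fibrils of the dermis, with type V built into the fibril and type III giving thinner fibrils. Type IV collagen forms the network of basement membranes and is made partly by keratinocytes, type VI forms beaded microfilaments around cells, and the FACIT collagens sit on fibril surfaces. The chains are modified in the endoplasmic reticulum by prolyl and lysyl hydroxylases, trimmed by proteases outside the cell and cross-linked by lysyl oxidases.

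Estimated counts summed to 29627341 to 30491197 per control mouse and to 30597189 to 30967107 per *Supt6*-KO mouse, so depth was alike in the groups. For *Supt6*, the targeted gene, the estimated counts were 2786, 2068, 2297, 3370 and 3798 in controls and 684, 503, 478 and 791 in *Supt6*-KO mice. The libraries thus match their labels for this gene. Its log2 fold change was -1.57 (SE 0.18, adjusted p = 1.3e-05 in edgeR's quasi-likelihood test), measured in whole skin with its unrecombined dermis. Levels below are CPM, counts scaled to a common library size with edgeR's TMM factors. These factors were 1.198 to 1.315 in controls and 0.674 to 0.910 in *Supt6*-KO mice, so with library totals alone the centre of the fold changes shifted: their median over all genes was -0.07 on the log2 scale with TMM and -0.76 without.

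Collagen transcripts were lower in *Supt6*-KO skin across nearly all structural classes. Of the 36 genes, 35 had at least 10 counts over the 9 mice and were tested, and *Col6a4*, a type VI chain, had at most 3 counts in any mouse. With a call set at an adjusted p under 0.05 and a change of at least 2-fold, 29 of the 35 fell and 0 rose. Over all 16426 genes tested, 24.9% fell and 20.9% rose by the same rule. For the 35 collagen genes the median of the log2 fold changes was -2.30, beside -0.07 for genes at large, and 34 of the 35 values were negative. By adjusted p alone, without the 2-fold limit, 31 were lower and 1, *Col12a1*, was higher, against 36.8% and 34.1% of all genes. In 27 of the 35 genes the *Supt6*-KO mice all lay under the lowest control, an arrangement seen in 31.8% of all genes, and in 0 they all lay above the highest (28.9% of all genes). Without Control 5, which had the highest CPM among controls in 32 of the 35 genes and the lowest in 1, *Col6a5*, 26 were lower and 0 higher, against 23.6% and 19.9% of all genes. In the 7 mice with Y-linked counts 29 were lower (24.7% of all genes) and 0 higher, and with library totals 34 were lower and 0 higher (41.4% and 8.95%). With the correction for transcript length and GC content described below, 18 were lower and 2 higher, against 17.5% and 15.3% of all genes. The collagen median was then -1.11. Among genes in the length range of the collagen genes, 32.5% fell and 11.1% rose in the main test. In a bulk sample, fewer cells of a type and less RNA per cell cannot be told apart.

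**Figure D1:**
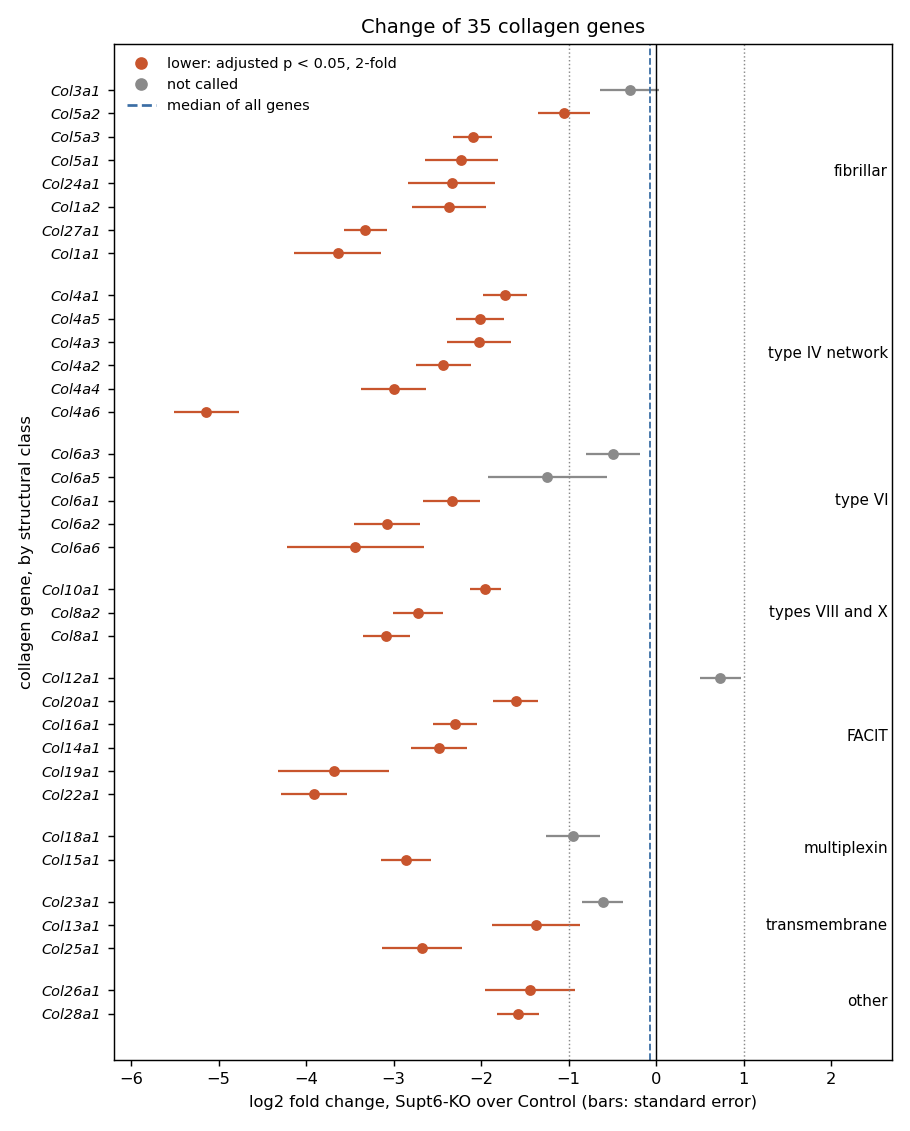
Log2 fold change of each tested collagen gene, *Supt6*-KO over control, with its standard error, grouped by structural class. Orange points are the 29 genes called lower, grey points the 6 not called, the dashed line is the median of all genes (-0.07) and the dotted lines mark 2-fold. *Col4a6* has the most negative value (-5.14) and *Col12a1* (0.73) is the only gene above 0.

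Levels of different genes can be compared only per length, in TPM, which the authors deposited for the 5 controls and 1 *Supt6*-KO mouse. In controls the highest mean TPM was that of *Col3a1* at 666 ± 389 (SD, n = 5), followed by *Col1a2* at 588 ± 441, *Col1a1* at 265 ± 230, *Col8a1* at 228 ± 122, *Col6a2* at 142 ± 95.4 and *Col6a1* at 129.6 ± 86.5. Neighbours in that order overlapped between mice. A gap came after *Col6a1*, whose lowest control (68.2 TPM) lay above the highest control of *Col16a1* (57.8 TPM), and the remaining genes ran down to 0.006 TPM for *Col6a4*. The spread between controls was wide, and *Col1a1*, for example, ran from 91.4 to 650 TPM.

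The summed collagen counts were 0.704%, 0.576%, 0.469%, 0.907% and 1.69% of all gene counts in Controls 1 to 5. In *Supt6*-KO mice 1 to 4 they were 0.189%, 0.188%, 0.252% and 0.161%, all below every control. Within that sum *Col3a1* took 28.5% to 35.6% in controls and 57.0% to 68.8% in *Supt6*-KO mice. *Col1a1* took 9.27% to 15.0% in controls and 1.79% to 3.41% in *Supt6*-KO mice, and *Col8a1* 8.60% to 12.9% against 1.88% to 5.05%. In CPM, with TMM factors, the sums were 5662.5, 4807, 3845, 7318 and 12873 in Controls 1 to 5. They were 2424, 2794, 3567 and 1771 CPM in *Supt6*-KO mice 1 to 4, so Control 3 and *Supt6*-KO 3 lay close. The collagen RNA of *Supt6*-KO skin was therefore a smaller share of the counts, by a margin that depends on the scaling. It also differed in make-up, with *Col3a1* holding most of the collagen counts.

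**Figure D2:**
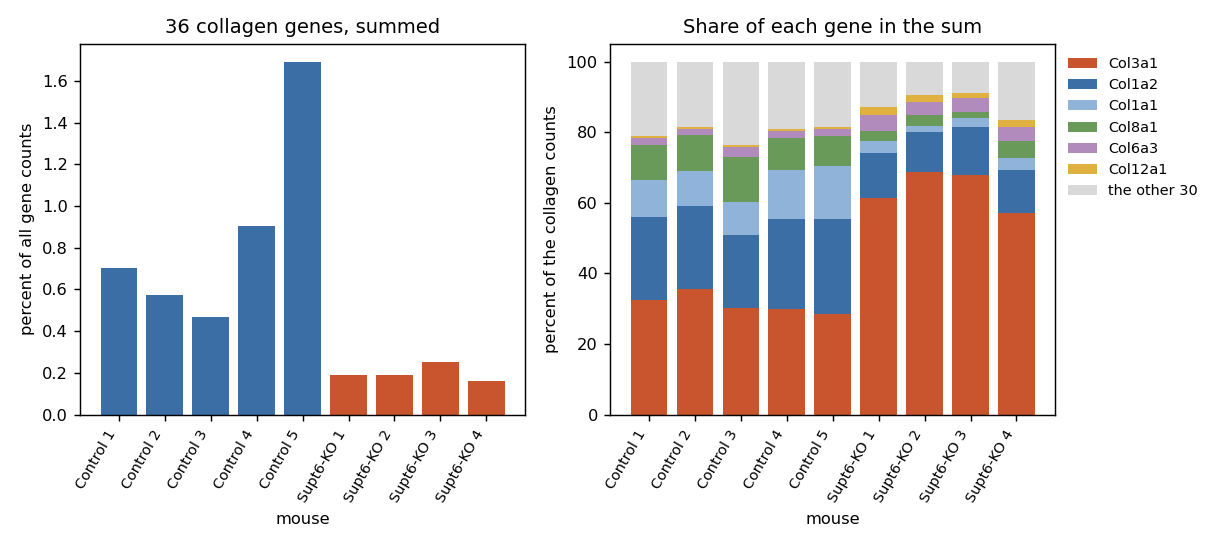
Left, counts of the 36 collagen genes as a percent of all gene counts in each mouse, blue for controls and orange for *Supt6*-KO mice. Right, the share of 6 genes and of the other 30 in those collagen counts; *Col3a1* holds at most 35.6% in any control and at least 57.0% in each *Supt6*-KO mouse.

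Among the 8 fibrillar genes, 7 fell and 1, *Col3a1*, did not pass the test. *Col1a1* (chr11:94936224-94953042 in GRCm38), the major chain of type I collagen, had 604, 465, 356, 1015 and 1932 CPM in controls and 81.9, 49.9, 88.0 and 60.3 CPM in *Supt6*-KO mice. The groups lay far apart, and the mean was 12.5-fold lower (log2 fold change -3.64, SE 0.50, adjusted p = 5.4e-05 in edgeR's test). Its partner chain *Col1a2* (chr6:4505618-4541543) had 1327, 1135, 793, 1862 and 3458 CPM in controls and 311, 315, 484 and 216 CPM in *Supt6*-KO mice. The groups did not overlap, and the log2 fold change was -2.37 (SE 0.42, adjusted p = 3.6e-04). *Col3a1* (chr1:45311538-45349706), the chain of type III collagen, had 1835, 1712, 1166, 2187 and 3662 CPM in controls and 1484, 1921, 2423 and 1010 CPM in *Supt6*-KO mice. Here the groups overlapped in part, with *Supt6*-KO 4 below every control and Control 5 above every *Supt6*-KO mouse, and gave a log2 fold change of -0.31 (SE 0.34, adjusted p = 0.43 in edgeR's test). With the length and GC correction described below *Col3a1* was at 0.72, so its direction depends on the correction.

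The upstream sequences of *Col1a2* and *Col3a1* are shown because these abundant fibrillar genes differed in their change. Both come from RefSeq's promoter windows (build GRCm38.p6, 250 bases before to 50 after a start site), which cover 29 of the 36 genes, and each was cut to the longest upstream run outside the RefSeq gene that holds no UTR annotated in GENCODE M21. Capitals mark matches on either strand to letters known from core promoters. The TATA motif was searched as TATAAA, with no mismatch allowed. A CCAAT match needed exactly these letters, and the GC motif was searched as GGGCGG.
*Col1a2*, chr6:4505370-4505492, plus strand: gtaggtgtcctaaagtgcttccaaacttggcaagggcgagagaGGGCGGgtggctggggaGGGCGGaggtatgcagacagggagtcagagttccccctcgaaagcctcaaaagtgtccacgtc
*Col3a1*, chr1:45311288-45311537, plus strand: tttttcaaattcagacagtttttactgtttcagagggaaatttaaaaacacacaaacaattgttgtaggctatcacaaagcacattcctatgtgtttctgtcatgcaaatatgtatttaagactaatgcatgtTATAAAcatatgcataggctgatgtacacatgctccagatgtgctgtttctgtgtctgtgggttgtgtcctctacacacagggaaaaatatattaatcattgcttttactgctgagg
In the whole 300-base windows, *Col1a2* held 2 GGGCGG and 2 CCAAT matches at 61.0% GC, and *Col3a1* held 1 TATAAA match at 37.7% GC. Of all 32851 windows in the table, 35.7% held GGGCGG, 37.4% CCAAT and 13.6% TATAAA on either strand. A match is a run of letters and not a shown binding site.

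The other fibrillar genes had log2 fold changes between that of *Col1a1* and that of *Col3a1*. *Col5a1*, *Col5a2* and *Col5a3* encode chains of type V collagen, which regulates fibril width. *Col5a1* fell from 87.6 ± 61.6 to 18.7 ± 3.17 CPM (mean ± SD, n = 5 and 4, as for all such values; log2 fold change -2.23, SE 0.42, adjusted p = 5.6e-04 in edgeR's test). *Col5a3* fell from 18.0 ± 5.46 to 4.19 ± 0.65 CPM, a log2 fold change of -2.10. With the length and GC correction described below, *Col5a1* and *Col5a3* were at -0.47 and -0.28, and neither was called. *Col5a2* had 102, 79.6, 73.8, 117 and 219 CPM in controls and 52.0, 56.4, 72.3 and 47.3 CPM in *Supt6*-KO mice, so the nearest mice of the groups nearly touched. Its log2 fold change was -1.05 (SE 0.30, adjusted p = 0.0077), just past the 2-fold limit, and it was -0.71 without Control 5 and -0.98 without *Supt6*-KO 4, in both cases not called. *Col27a1* fell from 52.2 ± 16.3 to 5.20 ± 0.67 CPM, 10.0-fold, and *Col24a1*, a minor fibrillar chain, from 1.04 ± 0.48 to 0.21 ± 0.17 CPM (log2 fold change -2.34, and -3.05 without *Supt6*-KO 3).

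**Figure D3:**
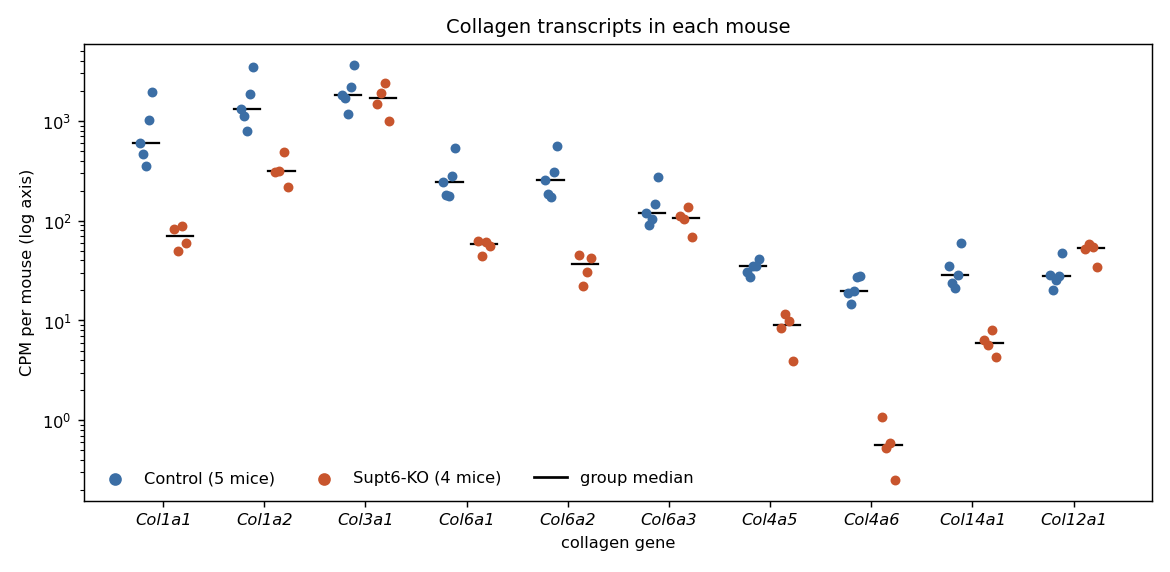
CPM of 10 collagen genes in each mouse on a log axis, blue for the 5 controls and orange for the 4 *Supt6*-KO mice, with a bar at the group median. The groups are apart for *Col1a1*, *Col1a2*, *Col6a1*, *Col6a2*, *Col4a5*, *Col4a6* and *Col14a1* and overlap for *Col3a1*, *Col6a3* and *Col12a1*.

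All 6 type IV genes fell, and in each the *Supt6*-KO mice lay below every control. With the correction for transcript length and GC content described below, *Col4a1*, *Col4a2*, *Col4a3* and *Col4a5* had log2 fold changes of -0.15, -0.65, -0.93 and -0.96 and were not called, and *Col4a1* was not called with that for length alone (-0.98). *Col4a1* and *Col4a2*, the chains present in every basement membrane, fell from 85.7 ± 32.9 to 25.8 ± 1.52 CPM and from 60.8 ± 28.6 to 11.2 ± 1.53 CPM (log2 fold changes -1.73 and -2.43, SE 0.25 and 0.31). *Col4a3* and *Col4a4*, chains of a network restricted to a few tissues, had 2.32 ± 0.50 and 1.46 ± 0.56 CPM in controls and fell with log2 fold changes of -2.03 and -3.00, on 5 to 17 and 3 to 6 counts in each *Supt6*-KO mouse. The X-linked chains *Col4a5* and *Col4a6*, which form a network found in the basement membrane of the epidermis, differed more. *Col4a5* had 30.4, 27.2, 34.8, 35.4 and 41.7 CPM in controls and 8.31, 11.6, 9.88 and 3.88 CPM in *Supt6*-KO mice. *Col4a6* had 18.7, 14.7, 19.8, 27.3 and 28.0 CPM in controls and 1.09, 0.53, 0.59 and 0.25 CPM in *Supt6*-KO mice, which is 7 to 26 counts a mouse in *Supt6*-KO skin. Neither pair of groups overlapped, and the *Supt6*-KO mice held 24.8% of the control level for *Col4a5* and 2.83% for *Col4a6*. The log2 fold changes were -2.01 (SE 0.27, adjusted p = 4.9e-05) and -5.14 (SE 0.37, adjusted p = 8.5e-07 in edgeR's test).

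Type IV genes lie in head-to-head pairs, and the windows of the X-linked pair are printed because its genes differed most in change among the 3 pairs. Their RefSeq start sites are 1343 bases apart, on opposite strands. The sequences are cut and marked as above, each reads 5′ to 3′ on its own gene's strand, and the stretch of *Col4a6* holds no match.
*Col4a5*, chrX:141475169-141475369, plus strand: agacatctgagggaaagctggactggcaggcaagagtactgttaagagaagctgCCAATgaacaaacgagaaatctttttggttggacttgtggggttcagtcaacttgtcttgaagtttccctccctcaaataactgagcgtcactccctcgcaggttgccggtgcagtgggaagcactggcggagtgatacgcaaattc
*Col4a6*, chrX:141474096-141474326, minus strand: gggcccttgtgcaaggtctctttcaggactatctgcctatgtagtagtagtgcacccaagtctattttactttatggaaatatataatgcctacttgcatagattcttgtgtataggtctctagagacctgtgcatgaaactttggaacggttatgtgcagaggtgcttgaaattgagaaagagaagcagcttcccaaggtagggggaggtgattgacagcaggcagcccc
The whole windows of both genes held 1 GGGCGG match each and no TATAAA match, and that of *Col4a5* also held 1 CCAAT match. The start sites of *Col4a1* and *Col4a2*, on chromosome 8, are only 21 bases apart on opposite strands, so that the transcripts overlap slightly and reads there cannot be told apart without strand, and each of those windows held CCAAT and GGGCGG matches.

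Of the type VI genes, 3 of 5 tested fell. *Col6a1* and *Col6a2*, neighbours on chromosome 10 whose products join with that of *Col6a3* in the common type VI molecule, had similar values in controls. *Col6a1* had 243, 180.4, 176, 283 and 538 CPM in controls and 62.8, 44.3, 61.8 and 55.9 CPM in *Supt6*-KO mice. *Col6a2* had 257, 185, 172, 311 and 559.6 CPM in controls and 45.5, 22.4, 31.0 and 42.3 CPM in *Supt6*-KO mice. Both were clearly apart between the groups, with log2 fold changes of -2.34 (SE 0.32, adjusted p = 6.0e-05) and -3.07 (SE 0.38, adjusted p = 2.4e-05 in edgeR's test). *Col6a3* had 120.2, 90.1, 104.8, 148 and 272 CPM in controls and 110.4, 103, 136 and 68.0 CPM in *Supt6*-KO mice. These overlapped, and the log2 fold change of -0.49 (SE 0.31, adjusted p = 0.18) did not pass the test. It was 0.53 with the length correction described below and 1.14, called higher, with the length and GC correction, so its direction depends on the correction. *Col6a6* fell from 2.02 ± 1.84 to 0.17 ± 0.20 CPM, the latter on 1 to 13 counts a mouse. Its log2 fold change was -3.44, and it was -2.71 without Control 5 and -4.70 without *Supt6*-KO 4. *Col6a5*, at 0.42 ± 0.19 and 0.17 ± 0.18 CPM, had a log2 fold change of -1.25 (adjusted p = 0.12), which was -1.97 and called without *Supt6*-KO 4. *Col6a5* and *Col6a6* arose by duplication and lie near each other on chromosome 9, and reads they share may be split between them in the estimated counts.

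The short-chain genes all fell. *Col8a1*, a chain of the type VIII network found beneath vessel endothelium and in other membranes, fell from 665 ± 258 to 78.2 ± 10.8 CPM, 8.50-fold (log2 fold change -3.09, SE 0.27, adjusted p = 2.4e-06 in edgeR's test). *Col8a2*, its partner, fell from 54.1 ± 22.4 to 8.16 ± 1.58 CPM. *Col10a1*, known from hypertrophic cartilage but kept by the naming rule, fell from 20.1 ± 2.80 to 5.19 ± 0.99 CPM (log2 fold change -1.95).

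Among the FACIT genes, 5 of 6 fell and *Col12a1* went the other way. *Col12a1* encodes a long collagen of fibril surfaces that is abundant in tissue under tension or repair. It had 28.5, 20.3, 25.2, 28.2 and 47.1 CPM in controls and 51.8, 58.0, 54.3 and 34.6 CPM in *Supt6*-KO mice. Only Control 5 lay within the range of the *Supt6*-KO mice, and the log2 fold change of 0.73 (SE 0.23, adjusted p = 0.014 in edgeR's test) stayed under the 2-fold limit. With library totals it was -0.0052, so its direction depends on the scaling. *Col14a1*, the related collagen that resembles it in domain structure, had 35.0, 23.5, 21.4, 28.4 and 59.9 CPM in controls and 6.31, 5.61, 7.96 and 4.31 CPM in *Supt6*-KO mice. These groups were apart, with a log2 fold change of -2.48 (SE 0.32, adjusted p = 3.5e-05). *Col16a1* fell from 92.8 ± 35.1 to 18.8 ± 2.41 CPM, *Col22a1*, a collagen of tissue junctions, from 6.39 ± 2.94 to 0.42 ± 0.11 CPM (6 to 13 counts a mouse) and *Col20a1* from 2.19 ± 0.38 to 0.72 ± 0.21 CPM. With the length and GC correction described below, *Col16a1* and *Col20a1* had log2 fold changes of -0.66 and -0.39 and were not called. *Col19a1* fell from 18 to 34 counts a mouse in controls to 0 to 3 counts in *Supt6*-KO mice (log2 fold change -3.69, and -4.56 without *Supt6*-KO 3).

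The genes of the last classes all had negative log2 fold changes, of which 5 of 7 passed the call. *Col15a1* and *Col18a1* encode the multiplexins, proteoglycans of basement membrane zones. *Col15a1* fell from 23.7 ± 9.77 to 3.28 ± 0.44 CPM (log2 fold change -2.86, SE 0.29, adjusted p = 6.0e-06 in edgeR's test). *Col18a1*, at 35.4, 24.6, 25.1, 38.5 and 49.1 CPM in controls and 18.2, 10.4, 13.1 and 29.6 CPM in *Supt6*-KO mice, overlapped through *Supt6*-KO 4 and had a log2 fold change of -0.95 (SE 0.30, adjusted p = 0.015), under the 2-fold limit, which it passed without Control 2, Control 3 or *Supt6*-KO 4 (-1.05, -1.04 and -1.32). Of the transmembrane collagens, *Col25a1* and *Col13a1* fell with log2 fold changes of -2.68 and -1.37, and *Col23a1* had -0.61 (SE 0.23, adjusted p = 0.033), also under the limit. With the length and GC correction described below, *Col18a1* and *Col23a1* were at 0.72 and 0.65, so their direction depends on the correction. *Col13a1* and *Col26a1* rested on 2 to 17 counts in each *Supt6*-KO mouse, their groups overlapped, and neither was called without Control 5 (log2 fold changes -1.03 and -1.22) or without *Supt6*-KO 1 (-1.03 and -1.11). *Col13a1* also lost its call without Control 4 (-1.31) and *Col26a1* without *Supt6*-KO 2 (-1.20). *Col28a1*, a collagen linked to peripheral nerve, fell from 3.14 ± 0.85 to 1.05 ± 0.09 CPM, and *Col26a1* from 1.06 ± 0.35 to 0.39 ± 0.33 CPM.

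Ratios of collagen genes within a mouse, which do not depend on library scaling, tested the uneven change directly. Of 12 ratios of chains that share a molecule or a class, 10 separated the groups completely. Each of these 10 gave p = 0.0159 by exact permutation, two-sided, of 5 mice against 4, the smallest p this design allows, and an adjusted p of 0.019 over the 12. Because genes of these ratios were tested above on the same counts, the ratios are another view of the same values and not further support.

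Within the fibrils, *Col1a1* fell more than its partner. The *Col1a1* to *Col1a2* ratio was 0.455, 0.41, 0.45, 0.545 and 0.559 in controls and 0.263, 0.159, 0.182 and 0.279 in *Supt6*-KO mice, a mean log2 difference of -1.16. The *Col3a1* to *Col1a1* ratio was 3.04, 3.68, 3.27, 2.15 and 1.90 in controls and 18.1, 38.5, 27.6 and 16.7 in *Supt6*-KO mice, 8.75-fold higher. Each *Supt6*-KO mouse thus had at least 16.7 counts of *Col3a1* per count of *Col1a1*, and no control more than 3.68. *Col5a1* and *Col5a2* also rose relative to *Col1a1*, by log2 differences of 1.40 and 2.45.

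In the network and filament collagens the chains of one molecule separated too, except *Col4a3* and *Col4a4*. The *Col4a5* to *Col4a6* ratio was 1.62, 1.85, 1.75, 1.298 and 1.49 in controls and 7.65, 21.9, 16.6 and 15.4 in *Supt6*-KO mice, 8.71-fold higher. The *Col4a1* to *Col4a2* ratio rose 1.60-fold, by a log2 difference of 0.68. The *Col4a3* to *Col4a4* ratio, which rests on 5 to 17 and 3 to 6 counts of these genes in *Supt6*-KO mice (log2 difference 0.70, exact permutation p = 0.254, adjusted p = 0.277), and the *Col4a5* to *Col4a1* ratio (-0.45, exact permutation p = 0.286, adjusted p = 0.286) did not pass. For type VI, the *Col6a1* to *Col6a2* ratio was 0.945, 0.978, 1.02, 0.912 and 0.961 in controls, a narrow range, and 1.38, 1.98, 2.00 and 1.32 in *Supt6*-KO mice. The *Col6a3* to *Col6a1* ratio rose 3.48-fold (log2 difference 1.80). Between collagens that share only a class, the *Col18a1* to *Col15a1* ratio rose 3.38-fold (1.75) and the *Col12a1* to *Col14a1* ratio 8.98-fold (3.17).

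**Figure D4:**
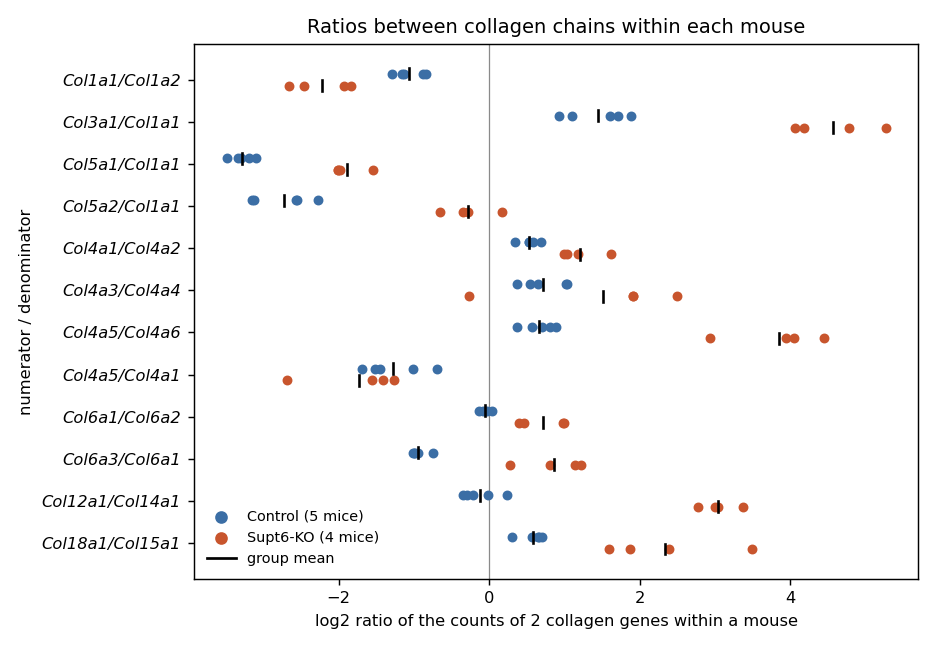
Log2 ratio of the counts of 2 collagen genes within each mouse, blue for the 5 controls and orange for the 4 *Supt6*-KO mice, with a bar at the group mean. The groups do not overlap in 10 of the 12 ratios; *Col4a3*/*Col4a4* and *Col4a5*/*Col4a1* overlap.

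Collagen transcripts are long and rich in G and C, and both properties moved with the fold change of genes at large. With genes ranked into 10 bins of equal size, the median log2 fold change ran from 1.20 in the bin of shortest transcripts to -1.005 in that of the longest, and from 0.62 at the lowest GC content to -0.73 at the highest. The median longest coding transcript was 6119 bases for the 35 collagen genes and 3005 bases for all genes, and the median GC content was 54.5% against 50.3%. Among the 8790 genes whose transcripts lie in the collagen range of 2781 to 11511 bases, 32.5% fell and 11.1% rose, with a median log2 fold change of -0.47. Within the 35 collagen genes themselves, log2 fold change followed neither length (Spearman's rho -0.03) nor GC content (rho -0.04), given as a description across genes. Some genes set side by side above did differ in GC content in the order of their fold changes. *Col3a1*, *Col1a2* and *Col1a1*, with log2 fold changes of -0.31, -2.37 and -3.64, have transcripts of 5564, 5348 and 5930 bases with 52.5%, 55.7% and 58.9% GC. *Col4a5* and *Col4a6*, at -2.01 and -5.14, have transcripts of 6536 and 6648 bases with 51.5% and 53.6% GC. Other pairs ran the opposite way. *Col15a1* and *Col18a1*, at -2.86 and -0.95, have 56.4% and 60.8% GC, and *Col6a2* and *Col6a1*, at -3.07 and -2.34, have 56.2% and 56.7%.

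A correction of the fold changes for the joint trend on length and GC, chosen after seeing the data, left 18 of the 35 collagen genes lower and made 2 higher, *Col6a3* and *Col12a1*. The 11 that lost their call were *Col4a1*, *Col4a2*, *Col4a3*, *Col4a5*, *Col5a1*, *Col5a2*, *Col5a3*, *Col13a1*, *Col16a1*, *Col20a1* and *Col26a1*. In that fit 17.5% of all genes fell and 15.3% rose, and the collagen median was -1.11. With a correction for length alone, 27 collagen genes were lower and 1, *Col12a1*, higher, against 20.6% and 18.7% of all genes. *Supt6* itself was at -0.83 with the length correction and at -0.42 with the joint one (adjusted p = 0.053 in edgeR's test), so the targeted gene lost its call as well. All 12 ratios kept their direction after the joint correction, and their size moved by differing amounts. The fitted log2 difference of *Col3a1* over *Col1a1* was 2.76 in place of 3.34, of *Col5a2* over *Col1a1* 1.86 in place of 2.59, of *Col4a5* over *Col4a6* 2.94 in place of 3.13, of *Col6a3* over *Col6a1* 2.46 in place of 1.84 and of *Col4a5* over *Col4a1* -0.81 in place of -0.28.

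**Figure D5:**
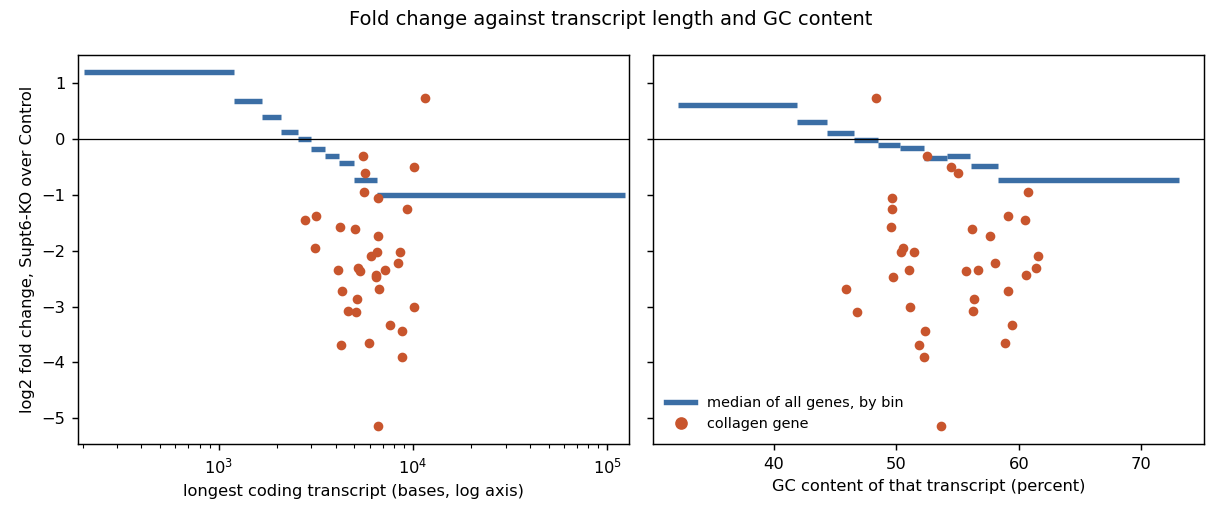
Log2 fold change, *Supt6*-KO over control, against the length (left, log axis) and GC content (right) of each gene's longest coding transcript. Blue bars are the medians of all genes in 10 bins of equal size, and orange points are the 35 tested collagen genes, which mostly lie under the median of genes alike in length or GC content.

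Of 20 genes for modification, folding and export of the chains, 11 fell and 3 rose, where 24.9% of all genes fell and 20.9% rose, the background for each of the lists that follow. They had a median log2 fold change of -1.23. *Creb3l1*, a transcription factor for collagen and secretory genes, fell from 15.1 ± 6.72 to 2.59 ± 0.64 CPM. *Colgalt2*, a collagen galactosyltransferase, and *Plod2*, a lysyl hydroxylase, fell with log2 fold changes of -2.02 and -1.80. *P4hb*, protein disulfide isomerase and a subunit of prolyl hydroxylase, named after its value was seen, rose from 509 ± 37.8 to 1439 ± 172 CPM (log2 fold change 1.50, SE 0.14). *P4ha3*, a prolyl hydroxylase subunit, rose from 6 to 8 counts a mouse to 11 to 38 counts, and *Ppib*, a prolyl isomerase and the gene of the list with the highest mean TPM in controls, rose from 188 ± 24.0 to 569 ± 75.6 CPM. Both *P4hb* and *Ppib* also serve secretory proteins other than collagen.

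Most procollagen processing and crosslinking genes fell, though not *Bmp1* and *Lox*. Of 8 processing genes 7 fell: the N-propeptidases *Adamts2*, *Adamts3* and *Adamts14* (log2 fold changes -1.71, -2.67 and -3.03), the C-propeptidases *Tll1* and *Tll2* (-2.52 and -1.77, with overlapping groups and 1 to 3 counts in each *Supt6*-KO mouse for *Tll2*) and the enhancers *Pcolce* and *Pcolce2* (-1.63 and -1.28). *Bmp1*, the main C-propeptidase, had 41.9 ± 9.21 and 35.5 ± 4.80 CPM and did not pass. Of 5 lysyl oxidase genes, *Loxl1*, *Loxl2*, *Loxl3* and *Loxl4* fell (-1.12, -2.09, -1.88 and -2.56), and *Lox*, with the highest mean TPM of these in controls, had 167 ± 39.0 and 140.5 ± 41.3 CPM with overlapping groups (-0.25, adjusted p = 0.33 in edgeR's test). The *Lox* transcript has 43.9% GC, and those of *Loxl1* to *Loxl4* have 51.7% to 61.0%. In the processing list *Bmp1* did not pass at 58.0% GC, and *Pcolce2* fell at 46.2%. The part of length and GC content in these values was not tested.

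Of 12 genes for proteins that bind collagen fibrils, 7 fell and 0 rose, with a median of -1.26. *Fmod*, *Prelp* and *Bgn*, small leucine-rich proteoglycans, fell most, with log2 fold changes of -4.13, -3.71 and -3.08. *Podn*, *Kera*, *Omd* and *Tnxb* fell with -2.29, -1.56, -1.33 and -1.19. *Dcn* had -0.75 and *Ogn* -0.66, under the 2-fold limit, and *Lum* (0.04), *Aspn* (0.50) and *Dpt* (-0.21) had groups that overlapped. The GC content of the transcripts differed alike, at 52.5% to 53.8% for *Fmod*, *Prelp* and *Bgn* and 34.4% to 48.7% for *Dcn*, *Ogn*, *Lum*, *Aspn* and *Dpt*, although *Omd* and *Kera* fell at 36.1% and 40.8%. *Podn* and *Tnxb*, which fell less than *Fmod*, *Prelp* and *Bgn*, had the highest GC content, 57.2% and 60.7%. The part of GC content in these values was not tested.

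Of 10 genes of collagen breakdown, 4 rose and 4 fell, beside 20.9% and 24.9% of all genes. The collagenases *Mmp13* and *Mmp8*, which cleave fibrillar collagen, rose from 0.36 ± 0.33 to 15.5 ± 3.62 CPM and from 0.11 ± 0.06 to 3.74 ± 2.25 CPM. *Mmp1a* and *Mmp1b* also passed the test, on 0 or 1 count in each control against 1 to 5 and 4 to 66 counts in *Supt6*-KO mice; they are close paralogs whose reads may be shared, so no fold is given. The gelatinase *Mmp2*, the membrane-bound collagenase *Mmp14*, the collagen uptake receptor *Mrc2* and *Fap*, a protease of activated fibroblasts, fell with log2 fold changes of -2.09, -1.04, -1.74 and -1.68. The gelatinase *Mmp9* (0.46) and *Ctsk* (0.37), a cysteine protease that degrades collagen, had overlapping groups. *Mmp8* is also a neutrophil gene and counts in the marker list below.

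Markers of the cells in these samples were measured in the same fit. Of 10 fibroblast markers free of collagens, 2 fell (*Pdgfrb* and *Clec3b*), 1 rose (*Dpp4*) and 7 did neither, beside 24.9% lower and 20.9% higher among all genes, with a median log2 fold change of -0.41. Their summed level was 325, 300.4, 238, 279 and 395 CPM in controls and 230.4, 209, 226 and 245 CPM in *Supt6*-KO mice, with *Clec3b* the most abundant by mean TPM in controls, as for all such genes below, and none at 0 in every mouse of a group. These sums overlapped between the groups only through *Supt6*-KO 4 and Control 3. By CPM, *Cd34* and *Thy1* were their largest parts in controls, at means of 90.9 and 79.2 CPM. *Dpp4* rose from 5.74 ± 1.37 to 31.2 ± 13.8 CPM within them. The collagen sums in CPM did not overlap, but Control 3 (3845 CPM) and *Supt6*-KO 3 (3567 CPM) lay close. The difference between the fibroblast and collagen sums was not tested. When libraries were scaled to the 10 fibroblast markers, *Dpp4* among them, 28 of the 35 collagen genes were lower and 1, *Col12a1*, higher. The shares of all genes were 19.5% and 25.9%, and the collagen median was -1.98.

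In each of the other stromal and muscle lists more markers fell than in the fibroblast list, a difference that was not tested. All 12 tested chondrocyte markers fell, 6 of which are the cartilage collagens set aside above, with sums of 744, 615, 598, 863 and 1282 CPM in controls and 116, 149.7, 138 and 124 CPM in *Supt6*-KO mice and *Snorc* the most abundant, while *Matn1* was at or near 0 in all. Ear skin holds a plate of cartilage and dorsal skin does not, and cartilage genes were well covered in every control. Of 10 skeletal muscle markers 8 fell, from sums of 4790.5 to 6367 CPM to 947 to 1523 CPM, with *Acta1* the most abundant. Of 10 endothelial markers 6 fell (82.3 to 173 CPM against 64.2 to 79.8 CPM, *Pecam1* the most abundant), of 9 mural markers 4 (369 to 424 against 159 to 234 CPM, *Des*), of 8 Schwann cell markers 5 (428 to 617 against 139 to 153 CPM, *Pmp22*) and of 10 adipocyte markers 7 (375 to 568 against 365 to 501 CPM, *Fabp4*). Within the mural sum, *Des* alone had 167 to 206 CPM in controls and 46.0 to 66.5 CPM in *Supt6*-KO mice. The mural markers *Rgs5*, *Mcam*, *Acta2*, *Tagln* and *Cnn1* were not called, and *Tagln* had a positive log2 fold change (0.65). The part of the cells of these lists in the collagen values was not tested.

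Most neutrophil markers rose and most hair shaft markers fell, while the keratinocyte and macrophage lists held calls in both directions. Of 10 keratinocyte markers 4 fell and 2 rose, with sums of 32614 to 36613 CPM in controls and 39431 to 54888 CPM in *Supt6*-KO mice and *Krt10* the most abundant in controls. Of 10 markers of the hair shaft and inner root sheath 9 fell, with sums of 5.96 to 2062.5 CPM in controls and 15.96 to 73.8 CPM in *Supt6*-KO mice, and controls differed widely. The sum of 5.96 CPM was that of Control 5 and lay below every *Supt6*-KO mouse. Of 9 tested neutrophil markers 8 rose, with sums of 4.25 to 9.65 CPM in controls and 35.6 to 98.9 CPM in *Supt6*-KO mice, *Cxcr2* the most abundant and *Ltf* at 0 in every control. Of 10 macrophage markers 5 rose and 1, *Csf1r*, fell, with sums of 218 to 408 CPM in controls and 351 to 418 CPM in *Supt6*-KO mice. The part of these cells in the collagen values was not tested.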

How the data were processed

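Bulk RNA-Seq libraries of 9 mice were analysed. The authors aligned paired-end reads to mm10 with Bowtie2 2.3.4.3 and deposited per-gene estimated counts from RSEM 1.3.1, not normalized between mice (9.0% of values not whole). HISAT and DESeq2 1.4.5 also stand in the submitters' processing notes. The authors deposited TPM for 6 of the 9 mice, used here only to compare levels between genes. Neither the annotation release nor strand use is given in the sources used here. All columns of per-sample values were used. Of 17943 gene identifiers, 17917 matched a RefSeq gene of GRCm38, which gave symbols and coordinates, and 17866 had a GENCODE M21 transcript for length and GC content.

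Estimated counts were rounded, and 16426 genes with at least 10 counts over the 9 mice were compared with edgeR 4.0.16 (quasi-likelihood test, TMM, R 4.3.3, Benjamini-Hochberg adjustment over all genes, no covariate). A call needed an adjusted p under 0.05 and at least 2-fold. SE is the absolute log2 fold change over the square root of F. Ratios within a mouse used counts plus 0.5 on the log2 scale and exact permutation tests (SciPy 1.17.1, pandas 2.3.3). The p-values measure the spread between these mice. With 29627341 to 30967107 counts a mouse, a count of 0 allows up to 3 counts, which covers counting error only. Alternatives were DESeq2 1.42.0, other normalizations and filters, a replicate block, each mouse left out, and corrections for length and GC content. Scripts were tested on simulated counts.

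The collagen genes and all lists were chosen with earlier results of these data known. All collagen genes are named. Lists of 12 or fewer genes are named in full where the text gives their genes, and longer ones by the 4 called genes of largest change and the most abundant one. Marker lists are given by their counts, sums and most abundant gene. The values of 2 list genes are not reported here.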

Additional observations from a re-analysis of the deposited data

Results flagged for a closer look

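Of 150 groups of 4 or 5 mice examined for a mouse apart from the rest, 11 were picked out, where chance picks about 5% or 7.5. Control 5 stood above the other controls in *Col24a1* at 1.88 CPM (median 0.89), in *Col6a6* at 5.22 CPM (median 1.51) and in *Col25a1* at 11.1 CPM (median 4.71). Without Control 5, 26 of the 35 collagen genes were called lower, against 23.6% of all genes. *Supt6*-KO 3 stood above the others of its group in *Col24a1* at 0.457 CPM and in *Col28a1* at 1.19 CPM, and *Supt6*-KO 4 below them in *Col15a1* at 2.62 CPM. All 3 of these values lay below every control. The log2 ratio of *Col5a1* to *Col1a1* was highest in *Supt6*-KO 2, at -1.54 against a median of -1.99. The log2 ratio of *Col6a3* to *Col6a1* was highest among controls in Control 3, at -0.75 against a median of -0.98. In the marker lists, and within the *Supt6*-KO group alone, the summed level of keratinocyte genes was lowest in *Supt6*-KO 4 at 39430 CPM, and those of adipocyte and neutrophil genes were highest in *Supt6*-KO 3 at 501.0 and 98.9 CPM. Every control lay below 39430 CPM for keratinocyte genes, and Controls 1, 2 and 3 lay above 501.0 CPM for adipocyte genes.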

How the results depend on the processing

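The count of 29 collagen genes called lower ran from 21 to 34 under 22 of 23 alternatives and was 18 with the length and GC correction; with each mouse left out in turn it ran from 26 to 30. Genes called higher were 0 except 1 with the length correction, 2 with the length and GC correction and 1 with scaling to fibroblast markers, and 0 in each leave-one-out fit. Of the 29, 18 kept their call in every alternative that tested them and 0 reversed; the others lost it at least once, 7 of them in 1 alternative only. Reversed values were *Col3a1* at 0.32 (length), 0.72 (length and GC) and 0.051 (fibroblast scaling), *Col6a3* at 0.53 (length) and 1.14 (length and GC), *Col18a1* at 0.72 (length and GC), *Col23a1* at 0.025 (length) and 0.65 (length and GC), and *Col12a1* at -0.0052 (library totals). *Supt6* was at -0.83 (length) and -0.42 (length and GC), and from -1.66 to -1.47 with each mouse left out. Over all genes, 4088 fell and 3427 rose in the main test; library totals gave 6802 and 1470, and testing against 2-fold gave 2271 higher. The leave-one-out ranges were 3845 to 4204 lower and 3248 to 3476 higher. Pathway genes called higher dropped from 8 to 3, and cell type markers called higher from 16 to 9, with at least 10 counts in every mouse, which tests fewer genes. Over 22 alternatives, pathway genes called lower ran from 31 to 53 and markers called lower from 50 to 73. Leave-one-out ranges were 39 to 43 lower and 7 to 8 higher for pathway genes, and 56 to 60 lower and 14 to 16 higher for markers. Except for the filter and the 2-fold test, the cause of these shifts was not tested.

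Replicate numbers were not used as pairs in the main test. Same-numbered mice of the groups deviated together with a mean r of 0.08 (lowest -0.01, n = 4), against -0.02 for 16 other pairs. With only 4 such pairs, these values cannot exclude a pairing. With the number as a replicate block, which leaves Control 5 without a partner, 26 collagen genes were lower and 0 higher, and *Supt6* was at -1.46. Pairing the ratios gave 0 of 12 past the threshold in an exact sign-flip test, since 4 pairs cannot go below p = 0.125; the ratio count was 10 to 11 with each mouse left out. Controls 1 and 3 had 3 and 2 counts of Y-linked genes and all other mice at least 5483, so a sex covariate was not run. With the 7 mice that have such counts, chosen after seeing the data, 29 collagen genes were lower. Depth limits *Col4a3*, *Col4a4*, *Col6a4*, *Col6a5*, *Col6a6*, *Col13a1*, *Col19a1*, *Col22a1*, *Col24a1* and *Col26a1*, which had 0 to 17 counts in *Supt6*-KO mice.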

Other observations

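The 8 collagen genes set aside by name also fell, all of them, with every *Supt6*-KO mouse below every control and a median log2 fold change of -2.64, beside -2.30 for the 35 described; the 6 cartilage genes among them also stand in the chondrocyte list above. *Col17a1*, the hemidesmosome collagen made by basal keratinocytes, had the highest mean TPM in controls and fell from 954 ± 190 to 175 ± 47.8 CPM (SD, n = 5 and 4). *Col7a1*, which forms anchoring fibrils, fell from 68.3 ± 24.6 to 15.5 ± 4.51 CPM. Of the cartilage collagens, *Col2a1* fell from 72.9 ± 37.4 to 5.01 ± 0.61 CPM and *Col9a1* from 85.0 ± 24.1 to 12.2 ± 2.06 CPM. The difference between the 8 and the 35 was not tested.

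Of 8 measured collagen receptor genes, 4 fell and 1 rose, where 24.9% and 20.9% of all genes did. *Ddr1*, the collagen-activated receptor kinase of epithelia, fell with a log2 fold change of -1.96, and the integrin subunits *Itga2*, *Itga10* and *Itga11* with -1.42, -1.89 and -2.17. *Lair1*, an inhibitory collagen receptor of immune cells, rose from 0.62 ± 0.23 to 3.38 ± 1.44 CPM (log2 fold change 2.44). *Itgb1* (-0.47), *Ddr2* (-0.70) and *Itga1* (-0.56) had overlapping groups. Of 12 genes of TGF-β signaling, a pathway known to raise collagen transcription, 5 fell and 0 rose, beside the same shares of all genes. The ligands *Tgfb1*, *Tgfb2* and *Tgfb3* fell with log2 fold changes of -1.01, -2.61 and -1.36, *Smad3*, a signal transducer, with -2.35 and the target *Ccn2* with -1.35. The receptors *Tgfbr1* (0.48) and *Tgfbr2* (-0.92), *Smad2* (-0.03), *Smad4* (-0.65), *Smad7* (-0.83) and *Scx* (0.15) stayed under the 2-fold limit.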
